A study of Mus musculus with 6 samples.

Results

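Astrocytes were described through 34 genes chosen by name, 20 identity genes that mark the cell type and 14 genes known to be raised in reactive astrocytes, the state that follows injury or inflammation. The list did not use the measured values, and it was drawn up with earlier results of these data known. Of these genes 33 were measured, out of 22180 genes with a probe set that carries a single gene symbol. Where a gene had more than 1 such probe set, the brightest stood for it. Only Ptgs1, which encodes a cyclooxygenase, had no such probe set and was not analysed here.

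Hippocampal RNA came as 3 samples of quadruple knockout mice (Tnc -/-, Tnr -/-, Bcan -/-, Ncan -/-) and 3 of wildtype mice, all male and at postnatal day 21. The knockout is constitutive, so every cell lacked tenascin-C, tenascin-R, brevican and neurocan throughout development. The methods describe the mice as siblings of an SV129 background. A figure legend of the study calls the 3 samples of each group dependent without saying how, so that p values measure the spread between these samples, which may be smaller than that between independent mice. Each sample, titled as a biological replicate, gave 1 Affymetrix Mouse Gene 2.0 ST array. Values are log2 signals, in which a difference of 1 is a doubling. Whole hippocampus was used, so that fewer astrocytes and less RNA per astrocyte cannot be told apart.

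Astrocytes take up the glutamate released at synapses and turn it into glutamine, carry potassium and water away from active neurons, and are joined into a network by gap junctions. Together with neurons and oligodendrocyte precursors they make the matrix of the brain, and tenascin-C and neurocan are among the matrix proteins known to be raised in glial scars. Reactive astrocytes fill with the intermediate filaments GFAP and vimentin and secrete acute phase proteins and chemokines. All 20 identity genes lay above the background level of 6.03 in all 6 arrays. That level was set so that 95% of 1108 probe sets for olfactory receptors, which the brain hardly uses, fell below it.

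Both lecticans fell strongly in the knockout arrays. Bcan read 5.85, 5.72 and 5.78 in the knockout, below the background level, and 10.36, 10.68 and 10.42 in the wildtype, lower in the knockout by at least 4.46 on the log2 scale when the background level stands for the knockout signals (limma adjusted p = 2.38e-06). Ncan read 6.81, 6.35 and 6.78 in the knockout, still above the background level, and 11.73, 11.82 and 11.80 in the wildtype, and fell by 5.14 on the log2 scale (limma adjusted p = 5.85e-06). Its other probe set read 5.78, 5.73 and 5.59 in the knockout, below the background level, and between 8.91 and 9.09 in the wildtype. The tenascin probe sets differed by less, by -0.15 for Tnc and -0.10 for Tnr (limma adjusted p = 0.794 and 0.706), and whether their probes lie in the deleted parts was not known. The knockout arrays had medians of 6.30 to 6.33, against 6.34 to 6.39 for the wildtype arrays, and upper quartiles of 8.42 to 8.43, against 8.35 to 8.41. Since this offset goes with genotype, shifts of a few hundredths cannot be told apart from it.

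The astrocyte genes differed little between quadruple knockout and wildtype hippocampus. None of the 33 passed an adjusted p of 0.05 in limma, and 0.139% of all 34472 probe sets did. At an unadjusted p under 0.05, limma called S1pr3 higher and Vim lower, 1 of 33 in each direction, against 3.91% of all probe sets higher and 5.14% lower, and an ordinary test on each probe set alone called S1pr3 and Sod3 higher and none lower, against 4.22% of all probe sets higher and 3.93% lower in that test. None exceeded 1.5-fold at an unadjusted p under 0.05, the rule of the methods, as 0.438% of all probe sets did. In 26 of the 33 genes the difference was within the larger SD of the groups, against 70.9% of all probe sets. For 31 of the 33 the 95% interval of the difference lay inside 1.5-fold in both directions, against 91% of all probe sets, and the exceptions were Lcn2 and S100a10.

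**Figure D1:**
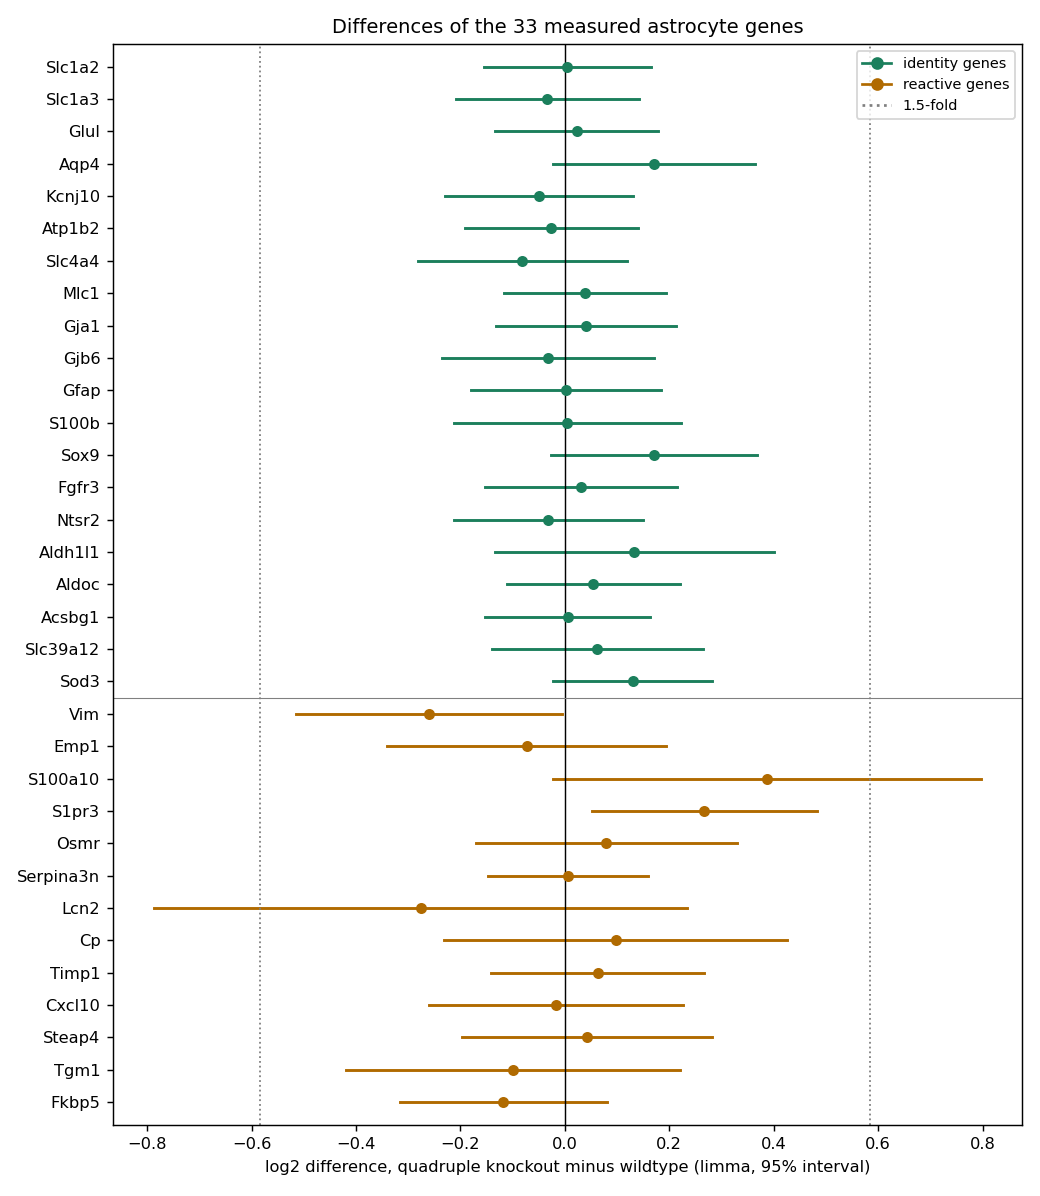
Differences in log2 signal, quadruple knockout minus wildtype, of the 33 measured astrocyte genes, with the 95% interval from limma as a line (3 arrays each). Dotted lines mark 1.5-fold, and the intervals of Lcn2 and S100a10 cross them.

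The identity genes formed the steadier group. Their differences ran from -0.08 for Slc4a4 to 0.17 for Aqp4, with a median of 0.01, against a median of -0.01 over all probe sets and 0.01 over those above background. Their 95% intervals stayed between -0.28 and 0.40, or from 1.22-fold lower to 1.32-fold higher. Of the 20 genes 14 were above 0 and 6 below, and these counts turned to 9 and 11 after a further quantile normalization and to 19 and 1 after centring each array on its median. The direction of the group therefore depended on the scaling.

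Glutamate handling showed close values in all arrays. Slc1a2, the glutamate transporter GLT-1, read 11.66, 11.59 and 11.63 in the knockout and 11.57, 11.68 and 11.63 in the wildtype. Its 2 groups overlapped, with a difference of 0.00 (SE 0.07, 95% interval -0.15 to 0.16). Slc1a3, the transporter GLAST, read 12.29, 12.40 and 12.28 in the knockout and 12.28, 12.38 and 12.41 in the wildtype, with a difference of -0.03. Here wildtype replicate 1 and knockout replicate 3 shared the lowest values. Glul, glutamine synthetase, read 12.79, 12.80 and 12.86 in the knockout and 12.77, 12.84 and 12.77 in the wildtype. Its difference was 0.02, and a further probe set of Glul gave 0.05.

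Among the genes for water and ions, Aqp4 had the largest difference. Aqp4, the water channel of astrocyte endfeet on blood vessels, read 10.57, 10.41 and 10.55 in the knockout and 10.28, 10.45 and 10.28 in the wildtype. Knockout replicates 1 and 3 lay above all wildtype arrays, and knockout replicate 2 lay below wildtype replicate 2, so that the groups overlapped (difference 0.17, SE 0.08, limma adjusted p = 0.584). Kcnj10, the inward rectifier channel Kir4.1 that buffers potassium, had a difference of -0.05, and Atp1b2, a subunit of the sodium pump, one of -0.03. Slc4a4, the sodium bicarbonate cotransporter, read 11.72, 11.61 and 11.47 in the knockout and 11.66, 11.63 and 11.74 in the wildtype. The low value came from knockout replicate 3 alone (difference -0.08, limma adjusted p = 0.789). Mlc1, a membrane protein of perivascular endfeet, differed by 0.04.

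Both gap junction genes differed by a few hundredths. Gja1, the main astrocyte connexin, read 12.07, 11.97 and 12.06 in the knockout and 11.92, 12.07 and 11.99 in the wildtype, a difference of 0.04 (SE 0.07). Gjb6, a second astrocyte connexin, read 7.44, 7.60 and 7.40 in the knockout and 7.44, 7.62 and 7.47 in the wildtype, a difference of -0.03 (SE 0.09). In both genes the groups overlapped.

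Gfap, the filament protein most used to judge reactivity, showed no difference that these arrays could resolve. It read 10.20, 10.25 and 10.16 in the knockout and 10.16, 10.13 and 10.32 in the wildtype. The highest and the lowest value were both wildtype, and the difference was 0.00 (SE 0.08, 95% interval -0.18 to 0.18, limma adjusted p = 0.996). The interval leaves room for 1.13-fold lower to 1.14-fold higher. S100b, a calcium-binding protein of astrocytes, had a difference of 0.00 (SE 0.09), with knockout replicate 2 the lowest array at 8.80.

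Sox9, a transcription factor of the astrocyte lineage, read 10.07, 10.07 and 9.86 in the knockout and 9.88, 9.83 and 9.78 in the wildtype. Knockout replicates 1 and 2 lay above all wildtype arrays, and knockout replicate 3 lay just under wildtype replicate 1 (difference 0.17, SE 0.08, limma adjusted p = 0.592). Fgfr3, a growth factor receptor that marks the lineage early, and Ntsr2, the neurotensin receptor of astrocytes, had differences of 0.03 and -0.03.

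Of the genes for metabolism and redox balance, Sod3 alone had groups that did not overlap. Sod3, the extracellular superoxide dismutase, read 7.84, 7.82 and 7.76 in the knockout and 7.65, 7.70 and 7.68 in the wildtype. All knockout arrays lay above all wildtype arrays, by 0.13 in the mean (SE 0.07, limma adjusted p = 0.593, two-sided exact permutation p = 0.1, the smallest that 3 against 3 allow). Among all probe sets 7.94% had every knockout array above every wildtype array, and among the astrocyte genes 2 of 33 did. Sod3 is also a gene that the study picked on these arrays, so that its direction is no independent evidence. Aldh1l1, a folate enzyme used as a marker of all astrocytes, read 9.27, 8.99 and 9.26 in the knockout and 8.87, 9.18 and 9.09 in the wildtype. The groups overlapped (difference 0.13, SE 0.11, limma adjusted p = 0.741). Aldoc, a glycolytic aldolase, Acsbg1, a fatty acid ligase, and Slc39a12, a zinc transporter, had differences of 0.05, 0.01 and 0.06.

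**Figure D2:**
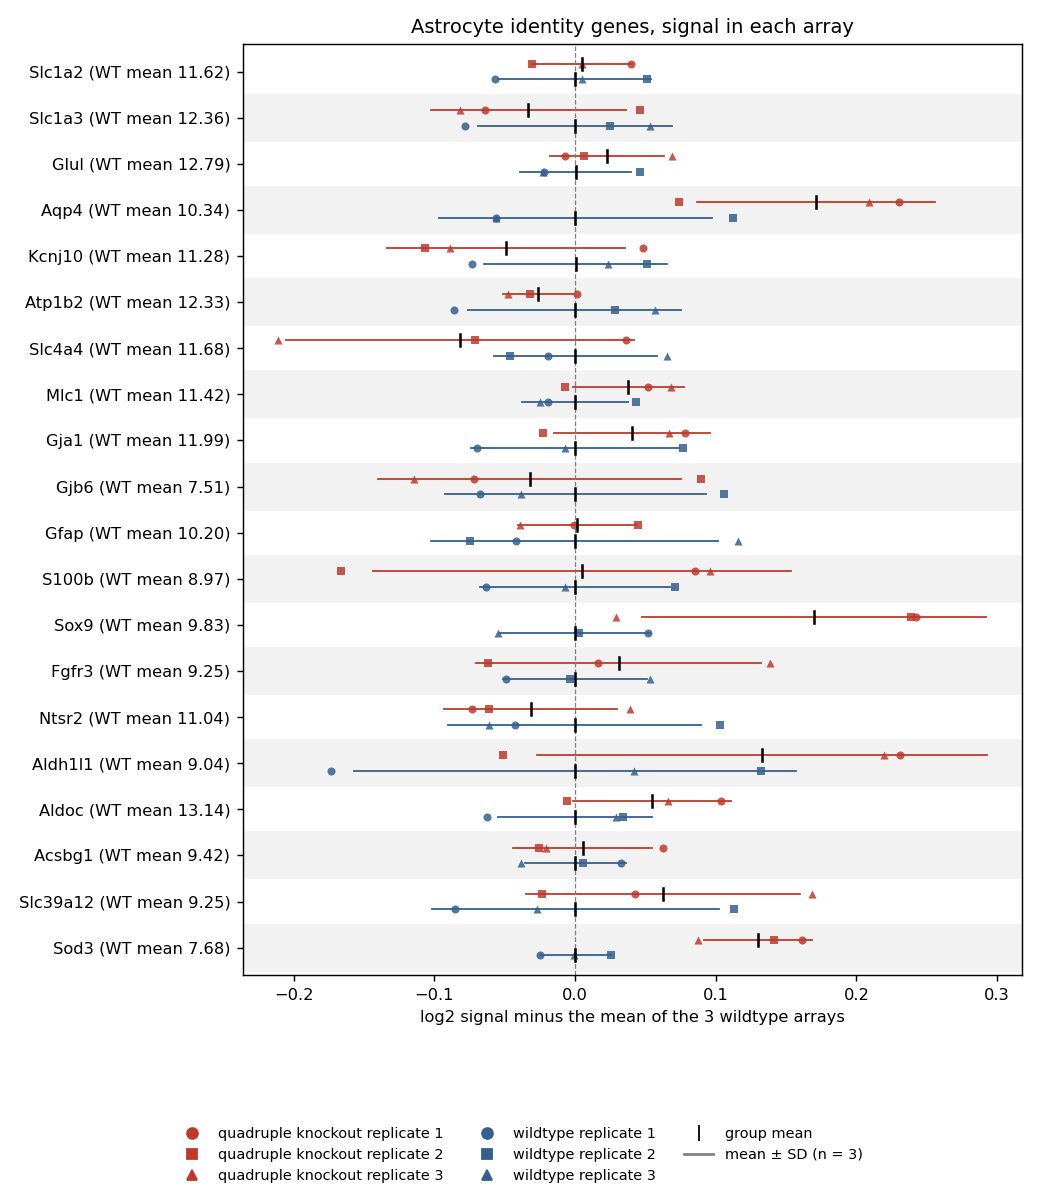
Log2 signal of the 20 identity genes in each array minus the mean of the 3 wildtype arrays, quadruple knockout above wildtype in each row, with group mean and SD (n = 3). Sod3 is the gene whose groups do not overlap, and in Gfap wildtype replicate 3 is the highest array.

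The order of the arrays within a genotype recurred across the identity genes. Within the knockout, replicate 1 was the highest in 11 of the 20 genes and replicate 2 the lowest in 11, against 30.4% and 37.1% of 19169 probe sets above background. Within the wildtype, replicate 2 was the highest in 13 and replicate 1 the lowest in 13, against 32.4% and 38.5%. Wildtype replicate 1 also had the lowest upper quartile of the 6 arrays, and whether the order comes from the mice or from the scaling was not tested. Averaged over the 20 genes and centred on the mean of all arrays, the 3 knockout arrays lay at 0.05, -0.02 and 0.02 and the 3 wildtype arrays at -0.07, 0.03 and -0.01. These ranges overlapped.

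The reactive genes spread more widely around no common shift. Differences ran from -0.28 for Lcn2 to 0.39 for S100a10 with a median of 0.01, and 7 of the 13 were above 0 and 6 below. Of the 13 genes 9 lay above the background level in all 6 arrays. Averaged over the 13 genes, the knockout arrays lay at 0.08, -0.08 and 0.01 and the wildtype arrays at -0.07, 0.00 and 0.06.

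S1pr3, a receptor for sphingosine 1-phosphate, read 8.54, 8.56 and 8.79 in the knockout and 8.28, 8.41 and 8.40 in the wildtype. The groups did not overlap, the knockout being the higher, and knockout replicate 3 was the highest. The difference was 0.27 (SE 0.09, 95% interval 0.05 to 0.48, limma unadjusted p = 0.0219, adjusted p = 0.509), and the two-sided exact permutation p was 0.1. With any 1 array left out it stayed between 0.18 and 0.31, and the limma unadjusted p was 0.0621 without knockout replicate 3 and 0.0728 without wildtype replicate 1.

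Vim, the intermediate filament vimentin, had the other unadjusted call and lay lower in the knockout. Its signals were 10.31, 10.32 and 10.12 in the knockout and 10.32, 10.56 and 10.66 in the wildtype. Wildtype replicate 1 lay with knockout replicates 1 and 2, so that the groups overlapped. The difference was -0.26 (SE 0.11, 95% interval -0.52 to -0.01, limma unadjusted p = 0.0457, adjusted p = 0.544). The limma unadjusted p was 0.00938 without wildtype replicate 1 and lay between 0.0578 and 0.143 without any other array, with differences between -0.36 and -0.19. A further probe set of Vim gave -0.17 (limma adjusted p = 0.606). No astrocyte gene had every knockout array below every wildtype array, against 7.39% of all probe sets.

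S100a10, the annexin A2 partner p11, read 9.34, 8.86 and 9.61 in the knockout and 8.84, 8.95 and 8.86 in the wildtype. Knockout replicates 3 and 1 were the highest arrays, whereas knockout replicate 2 lay within the wildtype values. The difference of 0.39 (SE 0.18, 95% interval -0.02 to 0.80, limma adjusted p = 0.568) became 0.59 without knockout replicate 2, past 1.5-fold with a limma adjusted p of 0.255, and 0.22 without knockout replicate 3. Knockout replicate 3 also stood highest in markers of CA1 pyramidal cells (0.53 against -0.07 and -0.23 in the other knockout arrays and -0.25 to 0.31 in the wildtype arrays) and of pericytes and meninges (0.29 against 0.09 and -0.09 in the other knockout arrays and -0.18 to 0.01 in the wildtype arrays). Dcn carried most of the pericyte and meningeal value, since the other 8 markers lay at 0.06, -0.08 and 0.11 in the knockout arrays and at -0.06, 0.06 and -0.09 in the wildtype arrays. Knockout replicate 3 was also the highest of the 6 arrays in markers of endothelium (0.26), oligodendrocyte precursors (0.11) and neurons (0.06). It was the lowest in those of dentate granule cells (-0.27) and of stem cells and neurogenesis (-0.04). The pattern was thus not particular to CA1 or pericyte and meningeal markers. The part of these cell types in the S100a10 values was not tested.

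The difference in Lcn2, the secreted lipocalin 2, rested on a single array. It read 6.30, 6.15 and 6.20 in the knockout and 6.24, 6.19 and 7.05 in the wildtype, all but the last close to the background level. Wildtype replicate 3 stood apart, and the Lcn2 difference of -0.28 (SE 0.22, limma adjusted p = 0.717) was 0.00 without this array. In the same array the microglia markers were highest, at 0.23 against -0.15 and -0.01 in the other wildtype arrays and -0.07 to 0.00 in the knockout arrays. Of these markers Tmem119 went the other way, with 8.37, 8.23 and 8.13 in the wildtype. Markers of dentate granule cells (0.24) and of stem cells and neurogenesis (0.07) were highest in wildtype replicate 3 too. Serglycin (Srgn), a proteoglycan of blood cells that also stands among the further reactive genes, read 7.93, 7.97 and 7.93 in the knockout and 7.83, 7.98 and 8.33 in the wildtype. No list of blood cell markers was read. The part of any of these cells in the Lcn2 value was not tested.

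In the other secreted products no array stood as far apart. Serpina3n, a protease inhibitor of the acute phase, read 12.99, 13.05 and 12.98 in the knockout and 12.98, 12.99 and 13.03 in the wildtype, a difference of 0.01 (SE 0.07). Cp, the ferroxidase ceruloplasmin, read 6.65, 6.49 and 6.33 in the knockout and 6.18, 6.34 and 6.67 in the wildtype. The knockout values lay inside the wildtype range (difference 0.10, SE 0.14). Wildtype replicate 3 was the highest array here as in Lcn2, just above knockout replicate 1. Cxcl10, a chemokine induced by interferon, read 6.02, 6.09 and 6.18 in the knockout and 6.14, 6.28 and 5.93 in the wildtype, close to the background level. Timp1, an inhibitor of metalloproteases, was below the background level in all 6 arrays, so that no fold is given.

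Of the remaining reactive genes, Osmr, the oncostatin M receptor, read 7.95, 7.69 and 7.77 in the knockout and 7.60, 7.67 and 7.89 in the wildtype. Its groups overlapped (difference 0.08). Emp1, an epithelial membrane protein, and Tgm1, a transglutaminase, had differences of -0.07 and -0.10. A further probe set of Emp1 gave -0.02 and exceeded the background level in 0 of 6 arrays. Steap4, a metalloreductase, differed by 0.04 and exceeded the background level in 3 of 6 arrays. Fkbp5, a co-chaperone of the glucocorticoid receptor, read 8.16, 8.04 and 8.15 in the knockout and 8.11, 8.27 and 8.34 in the wildtype. Knockout values lay within 0.12 of each other and below the 2 highest wildtype arrays (difference -0.12, limma adjusted p = 0.693).

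**Figure D3:**
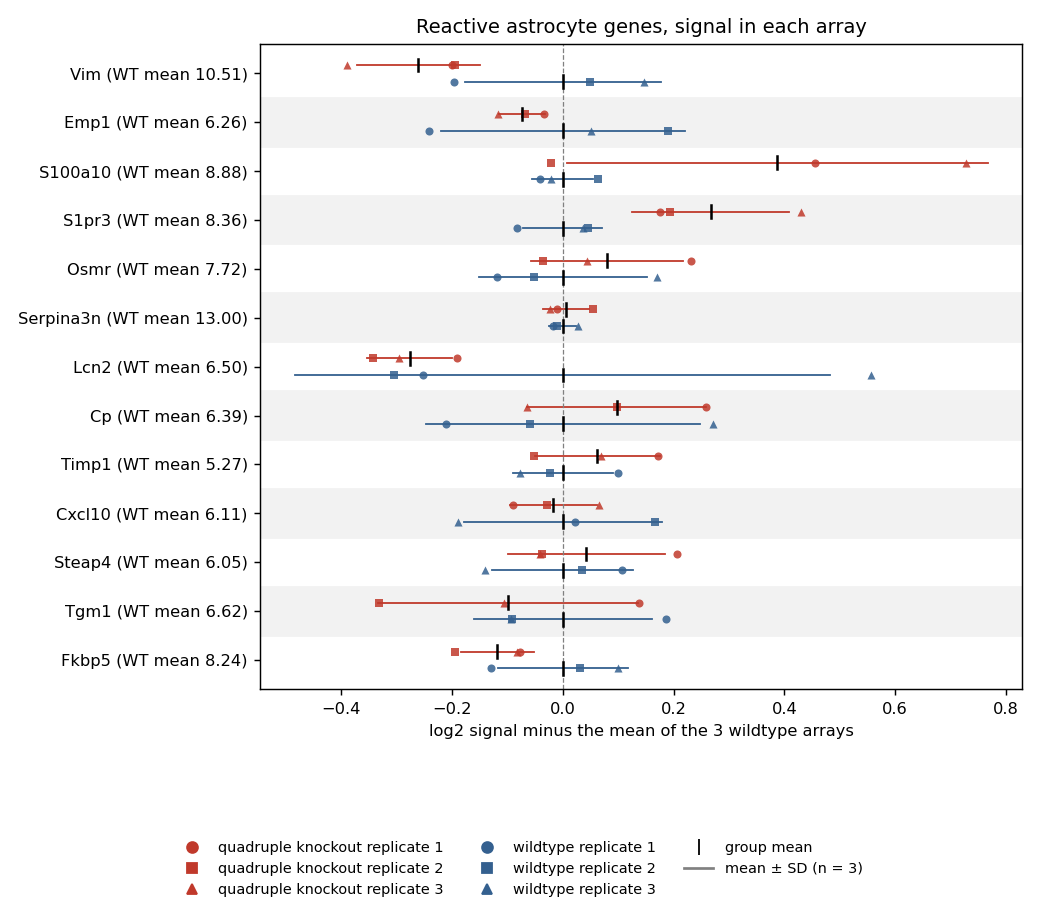
Log2 signal of the 13 measured reactive genes in each array minus the mean of the 3 wildtype arrays, quadruple knockout above wildtype in each row, with group mean and SD (n = 3). S1pr3 has no overlap, 1 wildtype array sets the Lcn2 spread, and 1 knockout array of S100a10 lies at the wildtype level.

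The start regions of S1pr3 and Vim, the genes with an unadjusted call, and of Gfap, the reference filament, are shown for the letters that STAT factors bind, since STAT3 is the best known inducer of reactive genes. Each runs from 250 bases before to 20 bases after the RefSeq start (build GRCm38.p6, 5′ to 3′ on the gene's strand), with matches to TTCNNNGAA in capitals.
S1pr3, chr13:51408368-51408637, plus strand: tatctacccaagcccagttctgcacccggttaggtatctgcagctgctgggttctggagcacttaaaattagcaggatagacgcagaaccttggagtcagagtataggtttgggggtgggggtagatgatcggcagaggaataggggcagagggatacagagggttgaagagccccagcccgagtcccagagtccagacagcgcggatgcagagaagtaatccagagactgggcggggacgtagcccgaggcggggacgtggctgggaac
Vim, chr2:13574061-13574330, plus strand: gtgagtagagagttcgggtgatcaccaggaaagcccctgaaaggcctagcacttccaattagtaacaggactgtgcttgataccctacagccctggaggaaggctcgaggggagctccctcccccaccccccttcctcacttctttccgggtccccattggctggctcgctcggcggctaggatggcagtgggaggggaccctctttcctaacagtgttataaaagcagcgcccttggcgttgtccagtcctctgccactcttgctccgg
Gfap, chr11:102897181-102897450, minus strand: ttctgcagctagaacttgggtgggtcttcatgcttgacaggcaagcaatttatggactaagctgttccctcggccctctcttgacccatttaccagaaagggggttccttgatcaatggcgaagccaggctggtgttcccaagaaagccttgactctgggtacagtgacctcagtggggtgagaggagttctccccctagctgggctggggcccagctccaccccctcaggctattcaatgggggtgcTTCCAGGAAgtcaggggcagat
Gfap held 1 match, beginning 2 bases before the start, while the windows of S1pr3 and Vim held none. Promoters were listed for 29 of the member genes, as 35 starts. In the full window of 250 bases before to 50 after the start, these letters, which read the same on both strands, occurred in 8 of the 35 starts (Acsbg1, Aldoc, Emp1, Gfap, Ntsr2, Slc1a3, Steap4 and Tgm1) and in 8.3% of 32851 promoters. The SOX letters ACAATGG, on either strand, occurred in 0 of the 35 and in 3.66% of all, and the glucocorticoid receptor letters ACANNNTGT in 4 of the 35 (Glul, Lcn2, Serpina3n and Slc1a2) and in 6.85% of all. No start of the member genes held more than 1 of these motifs. A match is a description of letters and not a bound site.

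Wider lists of astrocyte biology were read in the same fit, and in none of them did a gene pass the adjusted p. Of the genes named from these and the cell type lists, 16 had an unadjusted p under 0.05. Among them 7 kept it under every alternative and with each array left out (Rorb, Rfx4, Cd44, Id3, Bmpr1b, Gjd2 and Slc2a1). The other 9 lost it at least once (Psmb8, Kcnj16, Lama2, Slc16a3, Cnr1, P2ry1, Cspg4, Dcn and Col1a1). All 16 were named for having the 2 smallest p of their lists, and the alternatives reused the same arrays, which favours keeping it. How many of all probe sets keep such a p throughout was not counted, so that the 7 have no share to stand against. At an unadjusted p under 0.05, 3.91% of all probe sets were higher and 5.14% lower, and the counts in all lists below stand against these shares. Most genes of these lists lay above background. A fit of the probe sets above background alone called 6.64% higher and 5.22% lower, so that 3.91% is a low standard for higher calls. Of 46 further astrocyte genes 2 were higher and 1 was lower, with a median difference of 0.05. Rorb, a nuclear receptor, had a difference of 0.27 (SE 0.07, limma adjusted p = 0.451), and Rfx4, a transcription factor of radial glia and astrocytes, also one of 0.27 (SE 0.08, limma adjusted p = 0.486). Groups did not overlap in either gene. Among 23 astrocyte regulators 4 were higher and none lower, led by Id3, an inhibitor of basic helix-loop-helix factors downstream of BMP, and Bmpr1b, a BMP receptor. Of these 23 genes 15 lay above 0 and 8 below. These counts turned to 12 and 11 after a further quantile normalization and to 22 and 1 after median centring. Id3 read 7.96, 8.14 and 8.24 in the knockout and 7.82, 7.84 and 7.70 in the wildtype, a difference of 0.33 (SE 0.09, limma adjusted p = 0.470). Bmpr1b had a difference of 0.27 (SE 0.08, limma adjusted p = 0.486).

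Among 23 further reactive genes, with a median of -0.07, the unadjusted p called 1 gene higher and 1 lower, against 3.91% and 5.14% of all probe sets. Cd44, the hyaluronan receptor, read 6.97, 6.79 and 6.68 in the knockout and 6.43, 6.13 and 6.53 in the wildtype. The groups did not overlap, with a difference of 0.45 (SE 0.12, limma adjusted p = 0.454). Psmb8, a subunit of the immunoproteasome, had a difference of -0.22 (SE 0.08, limma adjusted p = 0.510). Of 14 glucocorticoid targets none had an unadjusted p under 0.05 (median -0.08), and Plin4, a lipid droplet protein, and Mt1, a metallothionein, came nearest with -0.17 and -0.13.

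Metabolic genes included the lowest p of all these lists. Slc2a1, the glucose transporter GLUT1 of brain endothelium and astrocytes, read 11.23, 11.19 and 11.28 in the knockout and 11.51, 11.60 and 11.72 in the wildtype. The groups did not overlap (difference -0.38, SE 0.08, 95% interval -0.56 to -0.19, limma unadjusted p = 0.00185, adjusted p = 0.362). Slc16a3, a lactate exporter, had a difference of -0.24 (SE 0.08). Both were the lower calls among 16 genes of glycogen, lactate and sterol metabolism, of which 12 lay above 0 with a median of 0.09 and none was called higher.

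Relatives of the transporter and connexin genes were called higher in 2 of 18 cases, against 3.91% of all probe sets. Gjd2, the connexin of neuronal gap junctions, read 8.16, 8.18 and 8.50 in the knockout and 7.89, 7.90 and 7.70 in the wildtype, a difference of 0.45 (SE 0.11, limma adjusted p = 0.442). Kcnj16, which pairs with Kir4.1, had a difference of 0.20 (SE 0.08, limma adjusted p = 0.536). The Kcnj16 call ended with the replicate block (limma unadjusted p = 0.0513) and after a further quantile normalization (0.0972). In the endfoot and Mlc1 complex, where dystrophin relatives bind laminin, 1 of 10 was higher, Lama2 with 0.25 (SE 0.10), and Utrn, utrophin, had 0.20 (SE 0.09). The Lama2 call also ended under both, with limma unadjusted p of 0.0634 and 0.0510. Of 10 listed signalling receptors of astrocytes 6 were measured, and all 6 lay above 0 in the deposited values (median 0.16). All 6 stayed above 0 after the further quantile normalization (median 0.12). Median centring raised every difference by the same amount, so that their sign under it (median 0.21) was fixed in advance. At an unadjusted p under 0.05, 3 of the 6 were higher, against 3.91% of all probe sets. Among them Cnr1, the cannabinoid receptor, had a difference of 0.21 (SE 0.08, limma adjusted p = 0.514), and P2ry1, a receptor for ADP, also 0.21 (SE 0.09, limma adjusted p = 0.540). Both calls ended with the replicate block (limma unadjusted p = 0.0605 and 0.0682). The third call, Grm3, a glutamate receptor, lay at the threshold (limma unadjusted p = 0.0499). All these signals come from whole hippocampus, so that astrocytes and other cells cannot be told apart in them.

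Several markers of other cell types varied more between arrays of a genotype than the astrocyte lists did. Averaged over 9 oligodendrocyte markers, the knockout arrays lay at -0.05, -0.24 and 0.30 and the wildtype arrays at -0.16, 0.31 and -0.16. The 8 endothelial markers lay at -0.09, -0.11 and 0.26 in the knockout and at -0.15, -0.06 and 0.16 in the wildtype. Both lists overlapped between the genotypes. The 5 dentate granule cell markers were all below 0 in the deposited values (median -0.16) and after a further quantile normalization. None had an unadjusted p under 0.05. Median centring added the same amount to every difference and left their sign, which is no separate evidence. Their mean lay at -0.01, 0.06 and -0.27 in the knockout arrays and at 0.06, -0.08 and 0.24 in the wildtype arrays. The genotypes overlapped here too, and knockout replicate 3 and wildtype replicate 3 lay furthest apart. Dcn, the meningeal proteoglycan decorin, read 8.92, 8.49 and 10.31 in the knockout and 7.91, 8.18 and 7.72 in the wildtype, a difference of 1.31 (SE 0.42, limma adjusted p = 0.499) that was 0.77 without knockout replicate 3. Col1a1, a fibroblast collagen, had a difference of -0.28 (SE 0.10, limma adjusted p = 0.509). The part of these cells in the astrocyte values was not tested.

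The remaining marker lists held 1 unadjusted call between them. Cspg4, the NG2 proteoglycan of oligodendrocyte precursors, read 7.80, 7.64 and 7.69 in the knockout and 7.50, 7.54 and 7.51 in the wildtype, a difference of 0.19 (SE 0.07, limma adjusted p = 0.527). It was 1 of 6 precursor markers. None had an unadjusted p under 0.05 among 11 microglia markers, 10 of choroid plexus and ependyma, 8 of neurons, 5 of CA1 and 6 of stem cells and neurogenesis. The complement genes C1qc and C1qb had the lowest p among the microglia markers, with differences of -0.22 and -0.21, and wildtype replicate 3 was the highest array in both (8.32 and 10.38). The lowest p among oligodendrocyte, endothelial and CA1 markers belonged to Mobp and Opalin of myelin (-0.22 and 0.11), Cdh5 and Cldn5 of endothelial junctions (0.17 and 0.12), and Mpped1 and Fibcd1 (0.35 and 0.31), with SE from 0.10 to 0.41. Syt1, a calcium sensor of synaptic vesicles, had a difference of 0.06. Ttr, transthyretin of the choroid plexus, had a difference of -0.64 (SE 0.35), Ccdc153, an ependymal gene, -0.22, and Gad1, which makes GABA, 0.22. Among dentate and stem cell markers, Calb1, calbindin, had a difference of -0.17, Dsp, desmoplakin, -0.18, Sox1, a progenitor factor, 0.15, and Mki67, of dividing cells, -0.12.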

How the data were processed

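Total RNA of whole hippocampus was hybridised to 6 arrays, 3 per genotype. The labels name the RNeasy Mini Kit with DNase for extraction, and the methods name another kit. The authors normalized the arrays by RMA in Affymetrix Expression Console and deposited log2 signals. The Transcriptome Analysis Console appears in the submitters' processing notes as well. Neither software versions nor the build are given in the sources used here. Of 34472 probe sets 23521 carry 1 gene symbol in the platform annotation, 1820 several and 9131 none, and only those with 1 were named. For 3 members a second probe set was read too. Genotypes were compared on all probe sets with limma 3.58.1 in R 4.3.3 (lmFit, eBayes, no block, two-sided, Benjamini-Hochberg adjustment), which was tested on simulated data. Errors are SD over 3 arrays, or SE where named, and the number of arrays limits the precision. Members, gene lists and the naming rule were chosen with earlier results of these data known. The rule named all members, the targeted genes, and in each list without a gene past the adjusted p those with the 2 smallest p. Srgn, and a mean of the pericyte and meningeal markers without Dcn, were chosen after values were seen. As alternatives, other scalings, an intensity trend, a replicate block, bright probe sets only, 1 probe set or the mean per gene, an ordinary test and leaving out each array were run. Promoters are RefSeq sequences of GRCm38.p6. Figures were drawn with matplotlib 3.10.9.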

Additional observations from a re-analysis of the deposited data

How the results depend on the processing

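No astrocyte gene passed the adjusted p under any alternative, the smallest being 0.255 for S100a10 without knockout replicate 2. Of 34472 probe sets 48 passed in limma, 24 in the ordinary test, 39 with the replicate block, 50 after a further quantile normalization, 59 with median centring, 64 with an intensity trend and 35 to 41 with an array left out. Of 19169 bright probe sets 59 passed, and of 22180 genes 10 with the gene mean and 7 with a single probe set each. Astrocyte genes higher at an unadjusted p under 0.05 (1 in the deposited values) numbered 4 with an intensity trend, 5 with median centring, 2 with bright probe sets only, 2 in the ordinary test and 0 to 3 with an array left out. Among all probe sets of the same fits 4.91%, 7.62%, 6.64%, 4.22% and 2.77% to 4.8% were higher, against 3.91% in the deposited values. Those lower (1, Vim) numbered 0 with the replicate block, median centring, the ordinary test and the gene mean, and 0 to 1 with an array left out. Among all probe sets of the same fits 4.81%, 2.56%, 3.93%, 4.58% and 3.68% to 6.6% were lower, against 5.14% in the deposited values. Astrocyte genes over 1.5-fold at an unadjusted p under 0.05 numbered 0 to 1 with an array left out. Among all probe sets 0.438% did so in the deposited values, and the share with an array left out was not counted. Same-numbered arrays did not deviate together (r of 0.00, -0.12 and -0.03). With 3 arrays per genotype this cannot show whether the numbers pair the mice. The replicate block left S1pr3 as the only unadjusted call. Median centring placed the median of the identity genes at 0.067 and that of all probe sets at 0.05. Values near 0 changed sign. After a further quantile normalization Gfap was -0.0277, Slc1a2 -0.0132, S100b -0.0473, Fgfr3 -0.0165, Acsbg1 -0.0404 and Cxcl10 0.0421. After median centring Slc1a3 was 0.0197, Gjb6 0.0210, Kcnj10 0.00363, Atp1b2 0.0275, Ntsr2 0.0217 and Cxcl10 0.0358. With each array left out in turn the range was Gfap -0.0351 to 0.0605, Slc1a2 -0.0236 to 0.0306, S100b -0.0407 to 0.0906, Glul -0.000995 to 0.0451, Gjb6 -0.0932 to 0.0206, Fgfr3 -0.0229 to 0.0774, Atp1b2 -0.0687 to 0.00285, Acsbg1 -0.0230 to 0.0218, Ntsr2 -0.0669 to 0.0199, Serpina3n -0.0172 to 0.0212, Lcn2 -0.43 to 0.00200, Steap4 -0.0398 to 0.0956, Cp -0.00859 to 0.23, Cxcl10 -0.11 to 0.0658, Emp1 -0.19 to 0.0220, Tgm1 -0.22 to 0.0163, and among other named genes Opalin -0.0640 to 0.29, Fibcd1 -0.21 to 0.62 and Tnc -0.25 to 0.0139. Of the astrocyte gene values, 12 of 263 under other settings and 26 of 198 with an array left out changed sign, and the cause was not tested. Cxcl10, Steap4, Emp1, Timp1 and, outside wildtype replicate 3, Lcn2 lay near or below background, which limits what their differences show.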
